A study of Mus musculus with 18 samples.

Results

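The livers described here came from db/db mice given recombinant mouse serum albumin (rMSA) or saline, and the members are all genes whose TPM averaged 1 or more across the 6 livers. TPM is the share of the transcripts that a gene holds, per length, with a fixed total for each library. Of the 16533 genes in the liver table, 11398 passed this filter, and the other 5135 were not tested. The 6 livers are 6 of the 18 samples of the series, whose other samples are AML12 cells, a mouse hepatocyte line. All 6 mice were males of the strain B6.Cg-dock7m Leprdb/++/J, so both groups share the leptin receptor mutation and the saline group is a diabetic control, not a healthy one. In the rMSA group, 3 mice had 1.5 mg of rMSA per gram of body weight intravenously every 3 weeks, and the 3 control mice had the same volume of saline. The course was 3 injections over 9 weeks, and according to the methods the 6 livers were picked at random among the treated mice. Each library is the liver of 1 mouse, with all its cell types. The mutation is carried by every cell of these mice, and no liver of a mouse with a working leptin receptor is among the samples.

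The liver takes up nutrients and hormones from the portal blood, makes most plasma proteins, and breaks down amino acids, drugs, steroids and bile acids. It disposes of the nitrogen of amino acids as urea, mainly in hepatocytes near the portal vein, while much of drug metabolism takes place near the central vein. Insulin, glucagon, glucocorticoids, growth hormone, cytokines and the circadian clock each set the level of many liver mRNAs, and in mice growth hormone also sets which genes differ between the sexes.

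Markers of hepatocytes were high in every liver. Alb, which encodes albumin itself, held 52715, 41367 and 32790.4 TPM in saline livers 1 to 3 and 52052, 44225 and 48524 TPM in rMSA livers 1 to 3. The groups overlapped and Alb did not pass the test (log2 fold change 0.21, SE 0.21, limma adjusted p = 0.499), so no difference was detected in the mRNA of the endogenous counterpart of the injected protein. Of 15 markers of pancreatic acinar cells, 6 were in the table and 1 reached the filter (Cela1). Of 8 markers of skeletal muscle, 5 were in the table and 1 reached it (Mylpf, 1.41 ± 0.263 and 1.67 ± 0.20 TPM, SD, n = 3 each). Lepr, the leptin receptor gene, had 1.7, 0.43 and 0.54 TPM in saline livers and 0.95, 1.08 and 1.86 TPM in rMSA livers, which does not check the genotype, since these values do not separate its splice forms.

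Differences were tested with limma on log2(TPM + 1), with Benjamini-Hochberg adjustment over all 11398 genes. In what follows a gene rose or fell where its adjusted p was under 0.05, and it was called where its log2 fold change was also at least 1 in size. Fold changes, including the values in brackets after gene names, are log2 on this scale, which understates the change of genes near 1 TPM. Of all tested genes, 955 fell (8.38%) and 2487 rose (21.8%), and 7956 did not pass. Called genes were 304 lower (2.67%) and 677 higher (5.94%). The TPM of every rMSA liver lay below that of every saline liver for 1478 genes (13%) and above for 3724 (32.7%). The median log2 fold change of all tested genes was 0.12. Centring each library on its median moved that median by -0.14 and gave 414 lower and 517 higher calls, and quantile normalization moved it by -0.15 and gave 398 and 507. Rescaling each library without the 50 genes of highest mean moved it by -0.05 and gave 336 and 620. The filter let in 137 genes that reached 1 TPM in saline livers alone, of which 57 fell, and 319 that reached it in rMSA livers alone, of which 196 rose.

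**Figure D1:**
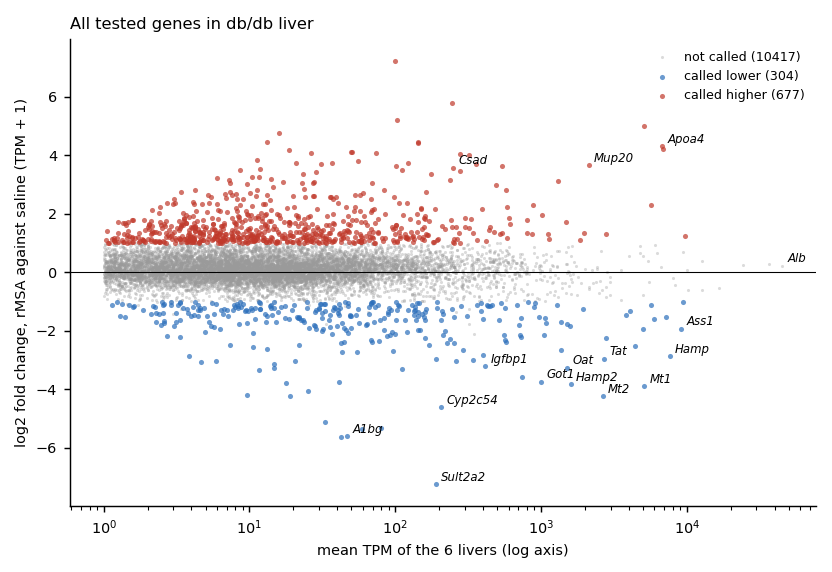
Mean TPM of the 6 livers (log axis) against the log2 fold change of rMSA against saline on the TPM + 1 scale, with 1 point per tested gene. The 304 genes called lower (blue) reach far to the right, with Hamp, Ass1, Mt1 and Mt2 each at a mean of over 1000 TPM, while Alb lies farthest right and near 0.

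The groups separated along the first principal component (72.0% of the variance). The second (15.5%) set saline liver 3 and rMSA liver 2 apart from the others. These 2 livers deviated from their group means in the same way (Pearson r = 0.56 across genes, which are not independent). Their deviations followed the GC content of the transcripts, with r of 0.68 for saline liver 3 and 0.50 for rMSA liver 2, against r between -0.50 and -0.11 in the other 4 livers over 11214 genes with a GENCODE transcript. The log2 fold change itself had r of 0.06 with GC content and -0.08 with transcript length. Without both livers, limma called 301 genes lower and 648 higher, and 277 of the 304 genes were called lower again. Depth is unknown, since TPM keeps no read counts, so no counting error is given.

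The genes called lower spanned a wide range of levels. Of the 304, 120 had a saline mean of at least 100 TPM, 89 of 20 to 100, 68 of 5 to 20 and 27 of 1 to 5. These levels are from the group in which the genes are higher by choice. The same counts were not made over all tested genes, so no excess of abundant genes is claimed. Together the 304 held between 18.1% and 19.5% of all TPM with saline and between 4.83% and 6.14% with rMSA. The 677 called higher held between 3.06% and 3.38% with saline and between 12.6% and 14.2% with rMSA. Both sets of shares follow from how the genes were chosen and are given as a description. In bulk liver, fewer cells of a type and less RNA per cell cannot be told apart.

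The metallothioneins Mt1 and Mt2, small proteins that bind zinc and copper, fell most in absolute terms among the 25 largest falls. Mt1 (chr8:94178883-94180327) had 9574, 9250.2 and 9694 TPM in saline livers and 536, 675 and 708 TPM in rMSA livers. Mt2 (chr8:94172618-94173567), its neighbour on the same strand, had 4794, 5285 and 4991 TPM with saline and 237, 248 and 318 TPM with rMSA. All 3 saline livers lay far above all 3 rMSA livers for both genes, and the livers of a group were close to each other. By limma Mt1 had a log2 fold change of -3.9 (SE 0.13, adjusted p = 2.01e-06) and Mt2 one of -4.23 (SE 0.13, adjusted p = 2.01e-06). Their promoters are shown because both genes moved together and metallothionein promoters hold short metal response motifs. The windows run from 250 bases before to 50 after the RefSeq start on GRCm38.p6, plus strand, at chr8:94178839-94179138 and chr8:94172368-94172667. The Mt1 span given above begins inside its window, before the start on which that window was built. Much of the Mt1 window thus lies within that span. Capitals mark TGCGCNC or TGCACNC on either strand.
Mt1: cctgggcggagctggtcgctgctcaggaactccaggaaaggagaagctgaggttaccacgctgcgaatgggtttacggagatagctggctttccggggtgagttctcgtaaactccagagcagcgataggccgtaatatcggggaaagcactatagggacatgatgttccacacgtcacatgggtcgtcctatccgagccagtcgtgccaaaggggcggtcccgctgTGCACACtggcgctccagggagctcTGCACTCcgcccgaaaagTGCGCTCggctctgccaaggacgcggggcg
Mt2: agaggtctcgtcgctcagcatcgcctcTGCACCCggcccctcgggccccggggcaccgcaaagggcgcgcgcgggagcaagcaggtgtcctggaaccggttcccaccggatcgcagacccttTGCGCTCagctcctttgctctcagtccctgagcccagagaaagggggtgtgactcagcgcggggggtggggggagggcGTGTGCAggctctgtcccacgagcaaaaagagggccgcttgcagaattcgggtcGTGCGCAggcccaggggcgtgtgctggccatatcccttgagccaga
The Mt1 window held 3 matches and the Mt2 window 4. At least 1 match was found in 25.7% of the 32851 promoter windows of the same length and at least 3 in 1.97%. A match is a description of letters, not of a bound site.

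Both metallothioneins are also textbook targets of the glucocorticoid receptor, the nuclear receptor for cortisol and corticosterone, and other such targets fell. Of 26 genes listed for this receptor, all tested, 18 fell and 2 rose, with a median log2 fold change of -1.26 (8.38% and 21.8% of all genes, median 0.12). The 18 include Mt1 and Mt2 themselves. The list also holds the receptor gene Nr3c1, so not all 26 are targets. Fkbp5, a co-chaperone that restrains the receptor, had 129, 122 and 135 TPM with saline and 21.1, 22.5 and 31.4 TPM with rMSA (log2 fold change -2.34, limma adjusted p = 3.07e-05), without overlap. Tsc22d3, which encodes the glucocorticoid-induced leucine zipper, had 120.3, 126 and 122 TPM with saline and 24.2, 47.1 and 61.3 TPM with rMSA (log2 fold change -1.55, limma adjusted p = 0.00449). Zbtb16 (-2.07), Ddit4 (-2.73), Klf9 (-1.57), Cdkn1a (-2.14) and Dusp1 (-1.22) fell as well. Pdk4, the kinase that shuts off pyruvate dehydrogenase, was among the 2 that rose (1.02). Sgk1 had 29.4, 26.2 and 22.3 TPM with saline and 12.1, 27.5 and 40.5 TPM with rMSA and overlapped. Nr3c1, the receptor gene itself, had 13, 13.3 and 7.11 TPM with saline and 9.78, 5.72 and 11.2 TPM with rMSA, and did not pass (log2 fold change -0.29, limma adjusted p = 0.484). Without 1 liver at a time, 14 to 18 of the 26 fell. Corticosterone was not part of the data analysed here.

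Igfbp1, a secreted protein that binds insulin-like growth factor and is repressed by insulin, had 861, 665 and 716 TPM in saline livers and 69.3, 78.3 and 92 TPM in rMSA livers. The lowest saline liver stood far above the highest rMSA liver (log2 fold change -3.21, SE 0.14, limma adjusted p = 5.40e-06). The methods of the paper state that livers for its omics work came from fed mice. In the list of FOXO1 targets and genes induced by fasting, 7 of 24 fell (29.2%) and 5 rose (20.8%), with a median of -0.11. Of all tested genes 8.38% fell and 21.8% rose. Those that fell include Lpin1 (-1.96), Klf15 (-1.52), Slc38a2 (-1.75) and Foxo1 itself (-0.96). Pck1, the entry enzyme of gluconeogenesis, had 4807, 4432 and 4482 TPM with saline and 964, 778 and 1190.4 TPM with rMSA and fell (-2.25, limma adjusted p = 4.59e-05), without overlap. Mttp, which loads lipid onto lipoproteins, rose (1.19). G6pc, the glucose-6-phosphatase that releases glucose, had 582, 695 and 765 TPM with saline and 563, 835 and 658 TPM with rMSA, overlapped between the groups and did not pass (-0.00, limma adjusted p = 0.999). Fgf21, a hormone secreted by the liver, rose from 8.7 ± 0.988 to 62.3 ± 29.2 TPM (SD, n = 3 each).

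**Figure D2:**
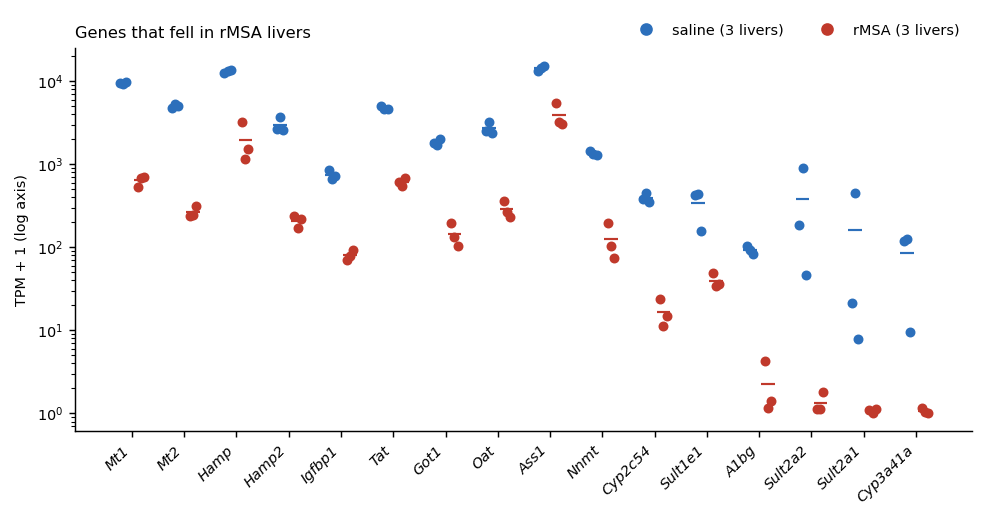
TPM + 1 (log axis) of 16 genes that fell in rMSA livers, in which each point is a liver, in the order of the replicate numbers, and each bar a group mean (n = 3). Every rMSA liver lies below every saline liver for each gene, and the 3 saline livers spread most for Sult2a1, Sult2a2 and Cyp3a41a.

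Enzymes that break down amino acids gave the most falls of any list by number, in a list of 68 tested members. Of these, 37 fell (54.4%, against 8.38% of all tested genes) and 8 rose, with a median of -0.56. By share, shorter lists such as the sulfotransferases (80%) and the urea cycle genes (70%) fell more often. When 1 liver was left out, 33 to 39 of the 68 fell. Without rMSA liver 2, 4 rose, and with median centring 3. Got1, the cytosolic aspartate aminotransferase (chr19:43499752-43524605), had 1826, 1726 and 2029 TPM in saline livers and 193, 132 and 102 TPM in rMSA livers (log2 fold change -3.74, SE 0.21, limma adjusted p = 1.70e-05). Its mitochondrial counterpart Got2 had 567, 585 and 673 TPM with saline and 741, 781 and 760.2 TPM with rMSA (log2 fold change 0.33, limma adjusted p = 0.043), and without rMSA liver 1, rMSA liver 2, rMSA liver 3, saline liver 1 or saline liver 2 the adjusted p was 0.0717 to 0.141, and with rescaling, median centring or no filter on low values it was 0.0501 to 0.431. Oat, the ornithine aminotransferase (chr7:132557475-132576398), had 2555, 3249.9 and 2374 TPM with saline and 364, 266 and 231 TPM with rMSA (log2 fold change -3.26, SE 0.19, limma adjusted p = 1.86e-05). For Got1 and Oat the lowest saline liver stood several times above the highest rMSA liver, whereas for Got2 every rMSA liver lay above every saline liver.

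Along the tyrosine pathway, Tat (-2.95), Hpd (-2.52), Hgd (-0.72) and Fah (-0.76), which take tyrosine on to fumarate and acetoacetate, fell. Hpd had 7323, 7260.1 and 7736 TPM with saline and 1903, 1162 and 976 TPM with rMSA, and rMSA liver 1 was the highest of its group. Gstz1, the maleylacetoacetate isomerase between Hgd and Fah, had 1022, 1234 and 1074 TPM with saline and 1012, 899 and 839 TPM with rMSA and did not pass (-0.28, limma adjusted p = 0.119). Pcbd1, which recycles the cofactor tetrahydrobiopterin, rose (1.0). Along the tryptophan and kynurenine pathway, Tdo2, the enzyme of the entry step, averaged 2322 ± 502 TPM with saline and 674 ± 148 TPM with rMSA (mean ± SD of 3 livers) and fell (-1.78), as did Afmid (-1.29) and Aadat (-1.03). Acmsd, which draws the pathway away from NAD synthesis, had 113, 70 and 47.6 TPM with saline and 8.11, 3.04 and 3.48 TPM with rMSA (log2 fold change -3.74, SE 0.37, limma adjusted p = 2.21e-04).

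The enzymes of serine, histidine, proline and lysine fell too. Sds, the serine dehydratase, had 2253, 2136 and 2648 TPM in saline livers and 483, 365 and 289 TPM in rMSA livers (log2 fold change -2.65, limma adjusted p = 4.35e-05). Hal (-2.02), Uroc1 (-0.94) and Ftcd (-0.80), which act in histidine breakdown, fell. Prodh (-1.54) and Aldh4a1 (-0.68) of proline breakdown fell, as did Aass (-2.41) of lysine breakdown, Agxt (-2.65), which handles glyoxylate, and Gls2 (-2.31), the liver glutaminase. Among the genes of branched-chain amino acids, Dbt (-1.85), Ivd (-1.49) and Bcat2 (-0.76) fell, while Bckdha (-0.29) and Mccc2 (-0.12) did not pass. Glud1, the glutamate dehydrogenase, had 671, 727 and 628 TPM with saline and 615, 598 and 722 TPM with rMSA and did not pass (-0.07, limma adjusted p = 0.7).

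In the breakdown of sulfur amino acids, Cth (-2.4) and Cbs (-1.17) fell. Csad, the decarboxylase that leads to taurine, went the other way. It had 34.3, 34.1 and 45 TPM in saline livers and 389, 443 and 546 TPM in rMSA livers, with no overlap (log2 fold change 3.57, SE 0.16, limma adjusted p = 5.47e-06). Of 34 tested genes of methionine and folate metabolism, 11 fell and 5 rose, with a median of -0.07. A smaller number, 3, rose without saline liver 2, without rMSA liver 3 or with median centring. Those that fell include enzymes that make and use S-adenosylmethionine. Mat1a, which makes it, had 5079, 6146 and 5736 TPM with saline and 2045, 2018 and 2078 TPM with rMSA. Gnmt, a methyltransferase that consumes it, averaged 7849.5 ± 633 TPM with saline and 2113 ± 589 TPM with rMSA, and Ahcy 2082 ± 313 and 647 ± 107 TPM (mean ± SD of 3 livers). All 3 fell, with log2 fold changes of -1.46, -1.93 and -1.69. Nnmt, the nicotinamide methyltransferase, had 1437, 1346 and 1298 TPM with saline and 197, 103 and 73.2 TPM with rMSA (log2 fold change -3.56, SE 0.30, limma adjusted p = 1.02e-04). Gamt (1.12), which makes creatine, and Chdh (1.16), which oxidizes choline, rose.

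Of 10 tested genes in the urea cycle list, 7 fell and 1 rose, with a median of -1.0. The list also holds transporters and Glul, which was the 1 that rose. Cps1, the entry enzyme, had 1505, 1579 and 1231 TPM with saline and 630.0, 403 and 477 TPM with rMSA. Ass1 (chr2:31470270-31520670) had 13247, 14543 and 15389 TPM with saline and 5418, 3242 and 3028 TPM with rMSA (log2 fold change -1.93, SE 0.22, limma adjusted p = 4.68e-04). In both genes rMSA liver 1 was the highest of its group and still below every saline liver. Asl (-1.55) and Arg1 (-0.59), the last steps, fell, as did the ornithine carrier Slc25a15 (-1.31) and the arginine transporter Slc7a2 (-2.26). Otc had 229, 230.5 and 106 TPM with saline and 159, 96.7 and 108 TPM with rMSA and did not pass (log2 fold change -0.58, limma adjusted p = 0.193). Saline liver 3 stood below the other saline livers, and without saline liver 3 the adjusted p was 0.0062. Glul, the glutamine synthetase that takes up ammonia near the central vein, had 420.1, 418 and 446 TPM with saline and 657, 745 and 784 TPM with rMSA and rose (0.76, limma adjusted p = 0.00103).

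**Figure D3:**
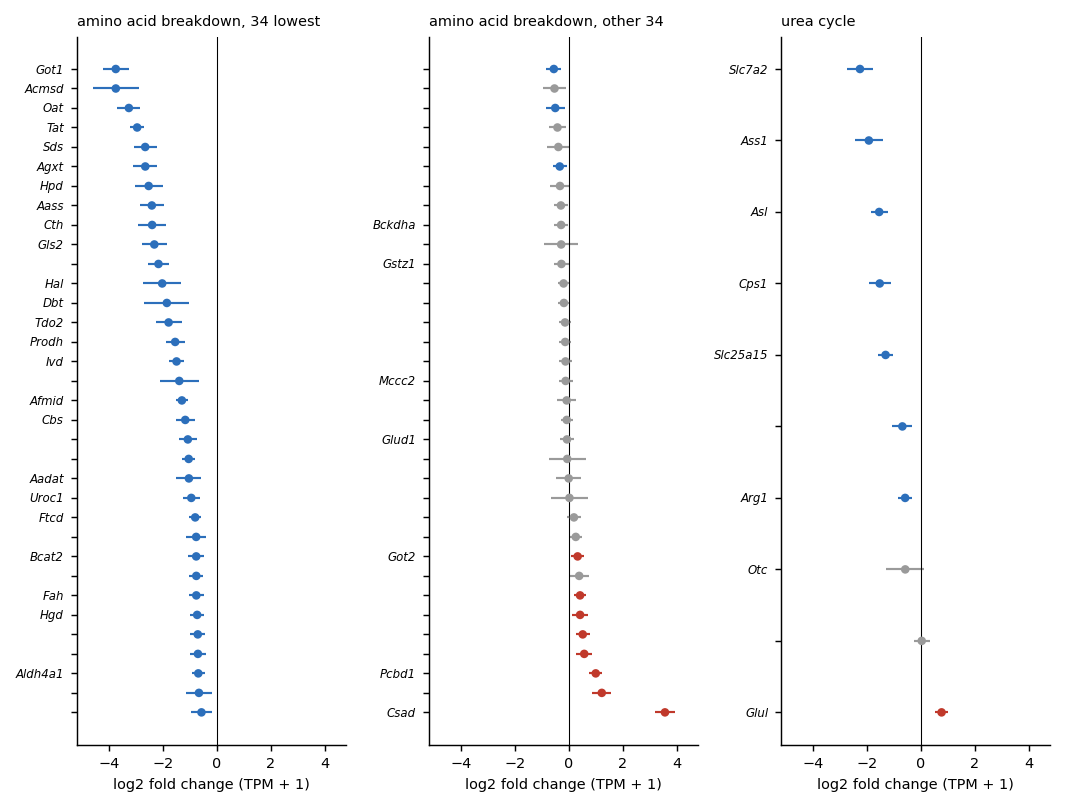
Log2 fold change of rMSA against saline (TPM + 1 scale) with its 95% confidence interval for the 68 tested genes of amino acid breakdown and the 10 of the urea cycle, blue where the gene fell, red where it rose and grey where it did not pass, with names for genes given in the text. The points run from -3.74 for Got1 to 3.57 for Csad, and 7 of the 10 urea cycle genes lie below 0 in blue.

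Of 28 tested amino acid transporters 9 fell (32.1%) and 6 rose (21.4%), with a median of -0.16. Of all tested genes 8.38% fell and 21.8% rose, so the share of rises was near that of all genes. The count that rose was 3 without both saline liver 3 and rMSA liver 2. Slc43a1, which carries large neutral amino acids, had 17.7, 25.8 and 22.5 TPM with saline and 1.8, 1.42 and 0.69 TPM with rMSA (log2 fold change -3.34, SE 0.22, limma adjusted p = 3.55e-05). The aromatic amino acid carrier Slc16a10 fell (-2.06), and Slc1a2, a glutamate transporter, fell (-1.9). The glutamine carriers Slc38a3 (-0.85) and Slc38a4 (-1.04) fell, and the creatine transporter Slc6a8 rose (1.27).

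Hepatocytes differ along the lobule, and the list of genes used near the portal vein holds many enzymes named above. Of 38 periportal genes 23 fell and 4 rose, with a median of -0.64. Of 41 pericentral genes, used near the central vein, 14 fell and 10 rose, with a median of -0.04 that turned to 0.02, 0.01 and 0.16 without saline liver 1, saline liver 2 and rMSA liver 2. A test of the difference between these lists was not made. Within the pericentral list Cyp2e1, a P450 of ethanol and other small molecules, had 5765, 9135 and 8729 TPM with saline and 3473, 3496 and 3634 TPM with rMSA and fell (-1.13), and Cyp1a2 fell (-0.96). Glul, described above, was among those that rose. Among periportal genes Apoa4 (4.31) rose.

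Many of the largest falls by fold were in enzymes of drugs, steroids and bile acids. Of 10 tested sulfotransferases 8 fell and 1 rose, with a median of -1.61. Sult2a2 had 185, 908 and 46.2 TPM in saline livers and 0.12, 0.12 and 0.79 TPM in rMSA livers. Sult2a1 had 20.6, 449 and 6.93 TPM with saline and 0.090, 0 and 0.14 TPM with rMSA, and Sult2a7 had 39.5, 45.7 and 25.5 TPM with saline and 1.61, 0.47 and 0.92 TPM with rMSA. For Sult2a1 and Sult2a2 saline liver 2 stood far above the other saline livers, yet all saline livers lay above all rMSA livers. By limma Sult2a2 changed by -7.25 (SE 0.88, adjusted p = 6.24e-04), Sult2a1 by -5.31 (SE 1.22, adjusted p = 0.0126) and Sult2a7 by -4.24 (SE 0.27, adjusted p = 2.76e-05) on the log2 scale. The adjusted p of Sult2a1 was 0.0517 with 5 TPM added in place of 1 and 0.0597 with no filter on low values. Sult1e1, which inactivates estrogen, had 427, 441 and 157 TPM with saline and 47.7, 33.4 and 35.3 TPM with rMSA (-2.98, limma adjusted p = 6.55e-04). Sult1a1, the phenol sulfotransferase, fell from 779 ± 173 to 249 ± 19.7 TPM (SD, n = 3 each, -1.62). Genes of the Sult2a family resemble each other, and the longest open reading frames of Sult2a1 and Sult2a5 in GENCODE vM21 were 94.9% identical, so how the counting split their reads is uncertain.

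Of all 68 tested genes with a Cyp symbol 31 fell and 12 rose. Of 35 tested Cyp2 family P450s 17 fell and 5 rose (median -0.54). The Cyp2c54, Cyp2c37 and Cyp2c50 genes fell together. Cyp2c54 had 382, 449 and 350.1 TPM with saline and 23.1, 10.4 and 13.9 TPM with rMSA (-4.62, SE 0.25, limma adjusted p = 1.42e-05). Their reading frames were 95.1% to 96.1% identical, and those of Cyp2c40 (-3.79) and Cyp2c69 (-4.18) 97.9%. Cyp2b10, the classic target of the receptor CAR, had 310.5, 123 and 168 TPM with saline and 37.3, 13.1 and 11.9 TPM with rMSA (-3.29, limma adjusted p = 0.00114), and Cyp2a5 fell from 2483 ± 718 to 681 ± 50.1 TPM (SD, n = 3 each, -1.83). Cyp2d9 (1.8), Cyp2c38 (1.53) and Cyp2c67 (1.04) rose. Cyp2d10 had 887, 981 and 1111 TPM with saline and 1049, 1002 and 881 TPM with rMSA and did not pass (-0.02). Por, the reductase that feeds electrons to all microsomal P450s, had 1084, 1021 and 1173 TPM with saline and 281, 319.5 and 345 TPM with rMSA and fell (-1.79, SE 0.11, limma adjusted p = 2.76e-05).

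Among 5 tested Cyp3a genes 3 fell and 0 rose (median -1.02). Cyp3a41a had 119, 126 and 8.6 TPM in saline livers and 0.16, 0.030 and 0 TPM in rMSA livers (-5.63, SE 0.86, limma adjusted p = 0.00194), with saline liver 3 far below the other saline livers. Its frame was 99.9% identical to that of Cyp3a41b, which was listed at 0 in the saline livers and at 0.39, 0.29 and 0.61 TPM in the rMSA livers, and 95.2% to that of Cyp3a11. Cyp3a11, the main P450 of the receptor PXR, had 1937, 947 and 683 TPM with saline and 2080.1, 1625 and 2463 TPM with rMSA and did not pass (0.91, limma adjusted p = 0.0805), and without saline liver 1 the adjusted p was 0.00443. The receptor genes Nr1i2 (PXR, 0.04) and Nr1i3 (CAR, -0.34) did not pass (limma adjusted p = 0.853 and 0.248). Of 14 Cyp4 genes, which act on fatty acids, 6 fell and 4 rose (median -0.13), and 2 rose without saline liver 2 or any 1 rMSA liver, with median centring and with quantile normalization. The Cyp4 median was -0.46 without rMSA liver 1, -0.25 without saline liver 3 and -0.27 and -0.28 with median centring and quantile normalization. Cyp4a12b fell (-3.14), and Cyp4a12a, 98.5% identical in its frame to Cyp4a12b, did not pass (0.16).

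Of 5 flavin monooxygenases 2 fell and 0 rose (median -0.24). Fmo5, the most abundant, did not pass (-0.24). Glucuronosyltransferases were split, with 5 of 15 falling and 5 rising (median -0.19). Ugt2b1 fell (-1.25) and Ugt1a5 rose (1.92), but 3 fell without saline liver 2 or rMSA liver 3, and 3, 3, 2, 1 and 1 rose without saline livers 1, 2 and 3 and rMSA livers 2 and 3. Glutathione transferases were split as well, with 7 of 22 falling and 10 rising and a median of 0.08 that turned to -0.06 with median centring. Gsta2 had 688, 866 and 556 TPM with saline and 133, 83.5 and 83.1 TPM with rMSA (-2.81), while Gstm3 had 230.1, 180.3 and 199.8 TPM with saline and 807, 1160.3 and 951 TPM with rMSA (2.24). Gstp1 (1.34) and Mgst3 (1.81) also rose. Carboxylesterases, which split esters of drugs and lipids, rose in 8 of 13 cases and fell in 2 (median 0.73), with Ces1d (1.53) and Ces2e (1.55) among those that rose. Hydroxysteroid dehydrogenases rose in 8 of 12 cases and fell in 2 (median 0.70), with Hsd17b12 (1.47) and Hsd17b4 (0.98) among those that rose.

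Several of these enzymes are among genes with higher mRNA in female than in male mouse livers, a pattern set by the timing of growth hormone pulses. All 6 mice were males. Of 40 tested female-biased genes 22 fell (55%) and 8 rose (20%), with a median of -0.97. Of all tested genes 8.38% fell and 21.8% rose. Without 1 liver at a time, 20 to 23 of the 40 fell. Besides the sulfotransferases and P450s above, A1bg had 104, 91.3 and 82.9 TPM in saline livers and 3.25, 0.18 and 0.40 TPM in rMSA livers (-5.61, SE 0.42, limma adjusted p = 6.33e-05). Cux2, a repressor found in female livers, had 7.29, 8.92 and 11.1 TPM with saline and 0.11, 0.18 and 0.29 TPM with rMSA (-3.07, SE 0.18, limma adjusted p = 1.98e-05). No rMSA liver reached 1 TPM. Prlr, the prolactin receptor, fell (-1.7), as did Cyp17a1 (-1.44) and Ntrk2 (-1.3). The female-biased genes that rose, a share near that of all tested genes, include Acot3 (2.57), Acot4 (1.31), Pparg (1.2), Abcd2 (1.43) and Gas6 (1.79).

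Of 38 tested male-biased genes 10 fell and 10 rose (26.3% each, median -0.11). Mup20, a major urinary protein that male mice use as a scent signal, had 526, 207 and 252 TPM with saline and 2796, 4464 and 4469 TPM with rMSA (3.66, SE 0.34, limma adjusted p = 1.49e-04). Cyp2d9 (1.8), Selenbp2 (2.14) and Nudt7 (1.53) also rose, while C8b (-2.05), Egfr (-1.08), Cyp7b1 (-1.22) and Ugt2b1 (-1.25) fell. Of 19 tested major urinary protein genes 4 fell and 2 rose (median -1.17), and 13 did not pass. The 4 became 10 without rMSA liver 1 and 2 without rMSA liver 2. Mup12 had 37.3, 20 and 22.7 TPM with saline and 7.19, 0 and 1.49 TPM with rMSA, and rMSA liver 1 was the highest of its group. Mup20 above was one of the 2 that rose. How alike these genes are was not measured here, and how the counting split reads among any close copies is uncertain.

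Some mRNAs of the growth hormone axis itself fell and fewer rose. Ghr, the growth hormone receptor, had 203, 246 and 183 TPM in saline livers and 249, 197 and 213 TPM in rMSA livers (0.06, limma adjusted p = 0.774). Igf1, the hormone made in response to it, had 91.3, 87.5 and 51.7 TPM with saline and 57.6, 42.2 and 43 TPM with rMSA (-0.65, limma adjusted p = 0.0589), saline liver 3 lay among the rMSA livers, and without saline liver 3 the adjusted p was 0.00241, and with rescaling, median centring or quantile normalization it was 0.0172 to 0.0451. Of 25 tested genes of this axis 8 fell (32%) and 4 rose (16%), against 8.38% and 21.8% of all tested genes. Their median of 0.02 turned to -0.12 with median centring, -0.17 with quantile normalization and -0.02 with rescaling. The median was between -0.03 and -0.02 without saline liver 2, saline liver 3, rMSA liver 1 or rMSA liver 3. Those that fell include Igfbp2 (-1.64), Igfbp4 (-0.76) and Socs2 (-0.90), an inhibitor that growth hormone induces. Cish, another such inhibitor, did not pass (-0.01). Stat5a (0.96) and Igfbp7 (0.73) rose, and Stat5b, the main STAT5 of liver, did not pass (0.12). The count that rose was 2 without saline liver 2, rMSA liver 2 or rMSA liver 3.

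The circadian clock is a loop in which BMAL1 and CLOCK drive their own repressors, the period, cryptochrome and REV-ERB proteins. Of 22 tested clock genes 7 fell and 4 rose (median -0.13). Arntl, which encodes BMAL1, had 12.4, 6.07 and 7.47 TPM with saline and 2.22, 1.57 and 1.82 TPM with rMSA (-1.7, SE 0.24, limma adjusted p = 0.00126). Nr1d1, which encodes the repressor of Arntl REV-ERB alpha, had 15.7, 15.4 and 21.7 TPM with saline and 77.4, 46 and 50.9 TPM with rMSA (1.65, SE 0.21, limma adjusted p = 8.39e-04). The groups did not overlap for either gene. Nfil3, a repressor at D-box motifs, had 55.7, 57.6 and 66.3 TPM with saline and 22, 10.9 and 8.87 TPM with rMSA (-2.12, limma adjusted p = 9.36e-04), and Dbp, the activator at the same motif, had 26, 50.2 and 57.2 TPM with saline and 115, 102 and 106 TPM with rMSA (1.33, limma adjusted p = 0.00567). Ciart (-2.38), Cry1 (-1.18), Cry2 (-0.92), Per1 (-1.29) and Usp2 (-1.47) fell, and Per3 (0.57) and Bhlhe40 (1.05) rose. For Per1 without saline liver 1 or saline liver 2 the adjusted p was 0.0664 to 0.0712, and with no filter on low values it was 0.0898, and for Per3 without rMSA liver 1, rMSA liver 2, rMSA liver 3, saline liver 1 or saline liver 3 the adjusted p was 0.058 to 0.137, and with rescaling, median centring, no filter on low values or quantile normalization it was 0.0594 to 0.109. Per2 (0.30), Clock (-0.22) and Nr1d2 (0.02) did not pass. The hour at which each liver was taken is not given in the labels, and its part in these values was not tested.

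**Figure D4:**
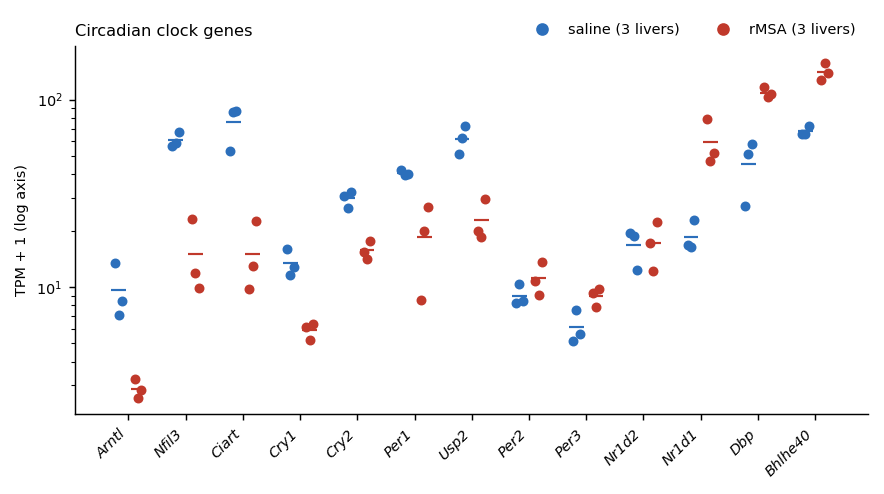
TPM + 1 (log axis) of 13 circadian clock genes, in which each point is a liver and each bar a group mean (n = 3). The rMSA livers (red) lie below the saline livers (blue) for the 7 genes at the left, Arntl to Usp2, and above them for Per3, Nr1d1, Dbp and Bhlhe40, with overlap for Per2 and Nr1d2.

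Promoter windows of Arntl and Ciart are shown because both genes fell and each holds a motif of the loop. The motif for REV-ERB and ROR has 10 letters, AAN followed by TAGGTCA or TGGGTCA, the E-box bound by BMAL1 and CLOCK was CACGTG, and the D-box was TTATGTAA or TTACGTAA, each searched on both strands. The windows lie at chr7:113207261-113207560 (plus strand) for Arntl and chr3:95882179-95882478 (minus strand) for Ciart on GRCm38.p6, and capitals mark the motif named for the gene.
Arntl: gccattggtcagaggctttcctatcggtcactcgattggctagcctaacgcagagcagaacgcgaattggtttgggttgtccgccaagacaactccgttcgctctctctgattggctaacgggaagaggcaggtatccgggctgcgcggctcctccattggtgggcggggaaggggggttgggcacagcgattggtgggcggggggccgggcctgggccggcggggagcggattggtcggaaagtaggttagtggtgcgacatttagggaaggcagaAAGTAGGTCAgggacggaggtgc
Ciart: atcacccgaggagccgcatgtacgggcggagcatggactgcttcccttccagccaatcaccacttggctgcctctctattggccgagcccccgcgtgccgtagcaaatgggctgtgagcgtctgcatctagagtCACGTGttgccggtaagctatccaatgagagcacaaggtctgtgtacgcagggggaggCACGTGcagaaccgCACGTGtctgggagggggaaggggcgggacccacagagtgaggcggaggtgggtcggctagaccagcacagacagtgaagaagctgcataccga
Arntl held 1 match to the REV-ERB and ROR motif, in 1 of its 2 windows, and such a match was found in 0.435% of all 32851 windows. Ciart held 3 E-boxes, and 7.15% of windows held at least 1 and 0.0883% at least 3. A D-box was found in 1.06% of windows. E-boxes were also found in windows of Per1 and Cry1, which fell, and of Tef, which did not pass, and D-boxes in those of Per3, which rose, and Timeless, which did not pass. Windows of Cry2, Nfil3 and Usp2, which fell, and of Nr1d1 and Dbp, which rose, held none of the 3 motifs.

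Proteins that the liver secretes in inflammation, the acute phase proteins, fell more often than they rose. Of 37 tested members 20 fell and 5 rose (median -0.59). Of the rises 1 was left without rMSA liver 3, 2 without saline liver 2, and 3 without rMSA liver 2. Hamp, which encodes hepcidin, the hormone that closes the iron exporter, had 12509, 13398 and 13803 TPM in saline livers and 3253, 1160.5 and 1542 TPM in rMSA livers (-2.88, SE 0.33, limma adjusted p = 4.59e-04). Hamp2, its duplicate (chr7:30922372-30924181), had 2672, 3677 and 2595 TPM with saline and 238, 168 and 220.2 TPM with rMSA (-3.83, SE 0.18, limma adjusted p = 7.08e-06). In both genes the groups lay far apart. The reading frames of the 2 genes were 93.7% identical, so how their reads were split is uncertain. Their promoter windows are shown because the duplicates fell together and each holds, at nearly the same distance from the start, 1 match to TTCNNNGAA, the motif of STAT proteins, in capitals. They lie on the minus strand of GRCm38.p6 at chr7:30943980-30944279 and chr7:30924132-30924431.
Hamp: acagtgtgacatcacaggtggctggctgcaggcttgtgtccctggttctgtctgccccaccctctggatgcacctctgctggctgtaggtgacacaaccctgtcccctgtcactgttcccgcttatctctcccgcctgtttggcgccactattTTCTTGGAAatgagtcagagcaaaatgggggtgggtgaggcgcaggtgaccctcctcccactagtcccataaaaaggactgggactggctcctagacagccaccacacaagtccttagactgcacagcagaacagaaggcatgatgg
Hamp2: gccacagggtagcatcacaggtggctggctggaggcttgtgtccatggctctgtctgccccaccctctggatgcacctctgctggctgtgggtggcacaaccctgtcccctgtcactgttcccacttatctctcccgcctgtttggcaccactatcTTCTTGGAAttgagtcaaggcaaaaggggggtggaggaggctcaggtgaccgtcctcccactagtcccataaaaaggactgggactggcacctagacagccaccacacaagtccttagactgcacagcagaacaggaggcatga
The match begins 97 bases before the start in Hamp and 94 before it in Hamp2, and 8.30% of all windows held at least 1.

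Other acute phase genes that fell were Orm2 (-2.22), an acid glycoprotein, Serpina3k (-1.6), Lcn2 (-1.34), which sequesters bacterial iron carriers, Saa3 (-1.68), Lrg1 (-0.92) and the fibrinogen chain gene Fga (-0.78). The receptor genes Il6ra (-1.91) and Il1r1 (-1.55) fell. Il6ra had 40.2, 42.7 and 39.2 TPM with saline and 8.87, 7.26 and 15.9 TPM with rMSA. Saa1 had 352, 215 and 459 TPM with saline and 261, 265 and 179 TPM with rMSA with overlap and did not pass (-0.50, limma adjusted p = 0.209), and without saline liver 2 the adjusted p was 0.0329. Crp did not pass (-0.02). Hp, which encodes haptoglobin, rose (0.66), and without rMSA liver 3 or saline liver 2 the adjusted p was 0.0531 to 0.057, and with median centring it was 0.0706.

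Of 29 tested genes of iron handling 7 fell and 6 rose (median -0.05), and 3 rose without saline liver 2 or rMSA liver 3. Their median was 0.0031 without saline liver 2 and 0.02 without rMSA liver 1. Besides the hepcidins, Tfr2 (-0.86), a sensor of iron on transferrin, Hmox1 (-1.15), which breaks down haem, and Atoh8 (-0.89) fell. Blvrb (1.14), a biliverdin reductase, rose. Bmp6 (-0.01) and Tmprss6 (0.07), which set hepcidin through the BMP pathway, did not pass.

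Of 58 complement and coagulation genes 16 fell and 8 rose (median -0.18). The count that fell was 25 without saline liver 3, and the count that rose was 4 without saline liver 2, rMSA liver 1 or rMSA liver 3 and 5 with median centring. C3, the hub of complement, had 5339.6, 5822 and 6314 TPM with saline and 2707, 2195 and 2147 TPM with rMSA (-1.31, SE 0.14, limma adjusted p = 2.80e-04). C8b (-2.05), Hrg (-1.27), F7 (-1.18) and Mbl2 (-1.11) fell, and C1s1 (1.92), a protease of the classical pathway, rose. F2 (-0.21), prothrombin, and Cfb (-0.03) did not pass. Of 28 serpins 12 fell and 8 rose (median -0.09). The antitrypsin genes Serpina1a, Serpina1c and Serpina1d had log2 fold changes of -0.76, -1.0 and -1.54 and fell, but they are near copies whose reads are uncertain in their split. Serpina12, which encodes the insulin-sensitizing adipokine vaspin, had 0.050, 0.070 and 0.35 TPM with saline and 18.4, 43.3 and 34 TPM with rMSA (4.76), and Serpina7, thyroxine-binding globulin, had 3.11, 2.08 and 1.25 TPM with saline and 49.1, 42.8 and 61 TPM with rMSA (4.07), both without overlap.

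Of 48 carriers, apolipoproteins and hormone-like plasma proteins 10 fell and 12 rose, with a median of 0.10 that turned to -0.04 with median centring and -0.01 with quantile normalization. Apoa4 had 520.5, 524 and 933 TPM in saline livers and 9184, 14406 and 15158 TPM in rMSA livers (4.31, SE 0.27, limma adjusted p = 2.76e-05). Apoa1, the main protein of high-density lipoprotein, had 2483, 1330.5 and 2018 TPM with saline and 6605, 10423 and 11376 TPM with rMSA (2.29, limma adjusted p = 5.57e-04). Lcat (-1.05), which esterifies cholesterol on that particle, and Agt (-1.13), angiotensinogen, fell. Inhbe (2.17), a hormone subunit of the activin family, and Gdf15 (2.0) rose. Of 8 tested genes of albumin uptake and recycling 1 fell and 3 rose (median 0.22). Fcgrt, the receptor FcRn that returns albumin to the blood, had 179, 193 and 227 TPM with saline and 229, 242 and 234 TPM with rMSA and did not pass (0.24, limma adjusted p = 0.132), and without saline liver 3 the adjusted p was 0.0303. Dab2 (0.98) and Cavin1 (0.87) rose.

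Bile acid genes moved in both directions, with 7 of 32 falling (21.9%) and 11 rising (34.4%), against 8.38% and 21.8% of all tested genes. Their median of 0.05 turned to -0.09 and -0.07 with median centring and quantile normalization and was just below 0 with rescaling. It was -0.11 and -0.04 without saline liver 3 and rMSA liver 3. The rises numbered 7 without saline liver 1, without rMSA liver 3 or with quantile normalization, and 6 with median centring. Cyp7a1, the rate-limiting enzyme, had 86.5, 96.7 and 33.1 TPM with saline and 90, 31.3 and 73.1 TPM with rMSA and did not pass (-0.14, limma adjusted p = 0.856). Cyp8b1, which directs synthesis to cholic acid, had 138, 167 and 188 TPM with saline and 604, 459 and 381 TPM with rMSA and rose (1.53, SE 0.18, limma adjusted p = 5.59e-04). Of the alternative routes, Cyp7b1 (-1.22) and Cyp39a1 (-1.16) fell, and Cyp27a1, which starts one of them, did not pass (-0.24, limma adjusted p = 0.0899). The uptake carrier Slc10a1 rose (0.68), and the export pump Abcb11 did not pass (0.22). Among 21 ABC transporters 3 fell and 7 rose (median 0.23), and 4 rose without saline liver 1 or rMSA liver 3. Abcg5 and Abcg8, which together pump sterols into bile, fell. Abcg5 had 187, 136 and 141 TPM with saline and 41.4, 47.2 and 58.6 TPM with rMSA, and Abcg8 had 175, 97.1 and 128 TPM with saline and 28.6, 31.7 and 38.5 TPM with rMSA (-1.64 and -1.96, limma adjusted p = 2.37e-04 and 3.26e-04). Abcg2, a drug exporter, rose (1.09). Of 18 SLC22 and SLCO transporters of organic ions 5 fell and 3 rose, with a median of 0.04 that turned to -0.10 with median centring, -0.12 with quantile normalization and -0.01 with rescaling. Without saline liver 3 it was -0.17 and without rMSA liver 3 -0.02. Slc22a26 had 12.5, 14.9 and 6.5 TPM with saline and 0.97, 0.19 and 0.28 TPM with rMSA and fell (-3.02), and Slco1a4 fell (-1.31).

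Among 32 transcription factors of hepatocytes 5 fell and 5 rose (median -0.04), and 9 and 11 fell with median centring and quantile normalization. The median turned to 0.02 without saline liver 1 and 0.04 without rMSA liver 2. The rises numbered 3 without saline liver 1 or rMSA liver 3, with median centring and with quantile normalization. Hnf4a, a central regulator of hepatocyte identity, had 494, 455 and 549 TPM in saline livers and 219, 211 and 259 TPM in rMSA livers (-1.12, SE 0.12, limma adjusted p = 2.96e-04). Cebpb (-0.87) and Esrra (-0.62) fell, Cebpa (0.78) rose, and Foxa2 (-0.06) did not pass.

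Folding and antioxidant genes rose in larger shares than all tested genes, of which 21.8% rose and 8.38% fell. Of 32 genes of endoplasmic reticulum chaperones and folding 18 rose (56.2%) and 1 fell (3.12%), with a median of 0.53. With median centring 11 rose. Manf (1.43), Pdia6 (1.11), Pdia4 (0.95) and Calr (0.87) rose. Herpud1, which serves the breakdown of misfolded proteins, had 939.8, 996 and 1288 TPM with saline and 254, 366 and 506 TPM with rMSA and fell (-1.56, limma adjusted p = 0.00189), and Hsp90b1 had 169, 176 and 59.8 TPM with saline and 151, 83.9 and 147 TPM with rMSA, where saline liver 3 and rMSA liver 2 stood below the other livers of their groups (0.02). Of 30 targets of the integrated stress response 6 fell and 10 rose, with a median of 0.03 that turned to -0.11, -0.02 and -0.02 with median centring, quantile normalization and rescaling. The count that rose was 6 without rMSA liver 2, without rMSA liver 3 or with quantile normalization. Asns, the asparagine synthetase, had 30, 24.4 and 15.2 TPM with saline and 1.19, 5.41 and 2.99 TPM with rMSA and fell (-2.61), as did Chac1 (-1.59) and Sesn2 (-1.1), while Atf3 (1.6) and Stbd1 (1.39) rose and Ddit3 (-0.03) did not pass.

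Of 31 targets of NRF2, the factor that responds to oxidants, 18 rose (58.1%) and 4 fell (12.9%), with a median of 0.57. Of all tested genes 21.8% rose and 8.38% fell. Pgd (2.35) and Tkt (2.15) of the pentose phosphate pathway and Me1 (3.17), which also serve lipid synthesis, rose, as did Srxn1 (1.72) and Gclc (1.11). Nqo1 did not pass, with 22, 23.8 and 18 TPM with saline and 19.2, 24.9 and 30.4 TPM with rMSA and overlapping groups (0.20, limma adjusted p = 0.444), and Hmox1 fell (-1.15). Of 18 heat shock and metallothionein genes 8 rose (44.4%) and 3 fell (16.7%), with a median of 0.48, and 5 rose with median centring. Hspb1, a small heat shock protein, had 8.64, 2.92 and 9.58 TPM with saline and 93.7, 121 and 95.4 TPM with rMSA (3.81, SE 0.34, limma adjusted p = 1.33e-04). The falls in this list are those of Mt1, Mt2 and Hspb8 (-0.72). Of 30 genes of retinoid metabolism 14 rose (46.7%) and 4 fell (13.3%), with a median of 0.49. The count that fell was 2 without both saline liver 3 and rMSA liver 2. Adh1 (1.31), Retsat (1.45), Aldh1a1 (0.87) and Rdh11 (1.06) rose, and Rdh16f2 (-2.11) and Cyp26a1 (-1.09), which degrades retinoic acid, fell.

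Among ribosomal protein, respiratory chain and proteasome genes, 0, 0 and 1 were called. Of 76 ribosomal protein genes 37 rose and 0 fell (median 0.35). The count was 12 to 36 without 1 liver at a time: 23, 14 and 12 without saline liver 1, saline liver 2 and rMSA liver 2, and 19 without rMSA liver 3. It was 7 with median centring and 21 with rescaling. Of 79 genes of the respiratory chain and ATP synthase 1 fell and 5 rose, with a median of 0.07 that turned to -0.07 and -0.01 with median centring and quantile normalization. The count that rose was 3 without saline liver 1 and 2 without saline liver 2, rMSA liver 2 or rMSA liver 3. Of 37 proteasome genes 2 fell and 8 rose (21.6%, near the 21.8% of all tested genes, median 0.21). With quantile normalization 3 fell and 2 rose. The count that rose was 5 and 4 without saline livers 1 and 2 and 3 without any 1 rMSA liver. Psmd8 rose (1.0). Of 58 genes of interferon response and antigen presentation 1 fell and 12 rose (20.7%, near the 21.8% of all tested genes). Their median of 0.06 turned to -0.08 and -0.04 with median centring and quantile normalization. The median was -0.07 without saline liver 2 and -0.01 without rMSA liver 3. Without saline liver 2, 4 fell and 7 rose. Ifi27l2b had 4.1, 2.85 and 5.38 TPM with saline and 54.5, 57.2 and 47.2 TPM with rMSA (3.43), and Oasl1 (1.22) and Dhx58 (1.15) rose, while Isg15 (0.06) and H2-K1 (0.11) did not pass.

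**Figure D5:**
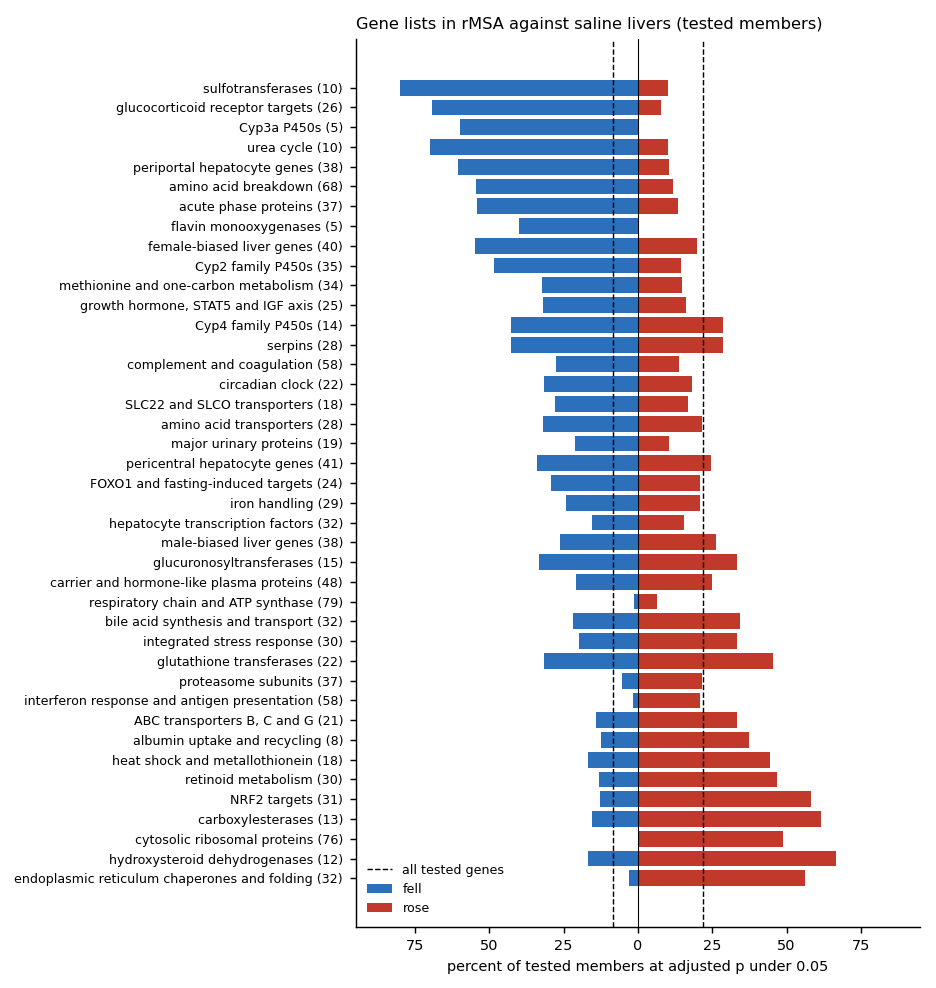
Percent of the tested members of each list that fell (blue, to the left) or rose (red, to the right) at an adjusted p under 0.05, with the number tested in brackets and dashed lines at the 8.38% and 21.8% of all tested genes. Lists run from those with the larger share of falls at the top, such as sulfotransferases and glucocorticoid receptor targets, to those with the larger share of rises at the bottom, such as ribosomal proteins and folding.

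Markers of other cell types were compared to see which moved beside these genes. Of 12 hepatocyte markers 8 fell and 2 rose (median -0.97), and their summed TPM was between 112959 and 125166 with saline and between 98398 and 106378 with rMSA. Those that fell include Hnf4a, Tat, Cyp2e1, Cps1 and Ass1, and Apoa1 was among those that rose. Of 18 tested Kupffer cell and macrophage markers 2 fell (11.1%) and 4 rose (22.2%), near the 8.38% and 21.8% of all tested genes. Their median of 0.07 turned to -0.07 with median centring and with quantile normalization, and 5 fell without saline liver 3. Their median was -0.06 without saline liver 3 and -0.05 without rMSA liver 2. Marco, a scavenger receptor of macrophages, had 55.1, 43.3 and 14.4 TPM with saline and 2.0, 4.2 and 3.4 TPM with rMSA (-3.04, SE 0.45, limma adjusted p = 0.00154). Trem2 (1.42), Gpnmb (2.01) and Cd9 (2.22), found in macrophages that handle lipid, rose, and Clec4f (0.07), Adgre1 (-0.02) and Vsig4 (0.07) did not pass.

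Of 18 stellate cell and fibroblast markers 11 rose and 0 fell (median 1.06), their sum being between 391 and 503 with saline and between 519 and 678 with rMSA. Acta2 had 1.58, 1.66 and 2.12 TPM with saline and 10, 11.8 and 10.4 TPM with rMSA (2.08). Of 15 sinusoidal endothelial markers 2 rose and 0 fell (median 0.21), with Clec4g at 0.88. Of 9 cholangiocyte markers 4 rose and 1 fell (median 0.57), and 2 rose without rMSA liver 2 or with quantile normalization. Spp1 rose (2.13). T and NK cell markers fell in 1 of 7 cases and rose in 0 (median -0.52), and of 3 B and plasma cell markers 0 fell and 1 rose (median 0.43). Neutrophil markers rose in 3 of 7 cases and fell in 0 (median 0.54), with S100a9 at 3.91, 2.24 and 1.5 TPM with saline and 8.22, 9.88 and 7.47 TPM with rMSA. Of 5 erythroid markers 0 passed (median -0.30). Of the acinar list 1 of 1 rose (median 1.06), and of the muscle list 0 of 1 passed (median 0.15, and -0.02 with quantile normalization). Of 6 adipocyte markers 3 rose and 0 fell (median 0.88). The 3 were Cidea, Cidec and Pparg. Adipoq, another gene of that list, did not reach the filter, with 0.15, 0.080 and 0 TPM with saline and 0, 0 and 0 TPM with rMSA. Which cells gave these rises was not tested. The part of cell composition in the falls of hepatocyte genes was not tested.

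Among the largest rises outside glycolysis and lipid synthesis were, besides Serpina12, Apoa4 and Serpina7, the water channel gene Aqp8, the pantetheinase gene Vnn1 and the gene Ly6d of a surface protein. Aqp8 had 9.97, 10.6 and 15.7 TPM in saline livers and 268, 291 and 268 TPM in rMSA livers (4.43, SE 0.16, limma adjusted p = 2.50e-06). Vnn1 had 2.53, 4.26 and 8.13 TPM with saline and 92.4, 96.5 and 97.8 TPM with rMSA (4.12, SE 0.29, limma adjusted p = 4.84e-05). Ly6d had 7.31, 4.28 and 13.8 TPM with saline and 382, 608 and 465 TPM with rMSA (5.78, SE 0.34, limma adjusted p = 2.04e-05). None of the 3 genes had overlapping groups. Spon2 (4.18), Wfdc2 (4.09), Rad51b (4.46) and 2010003K11Rik (4.45) complete the 10. Others among the 25 largest falls were E030018B13Rik, with 70.5, 70.9 and 52.6 TPM with saline and 1.33, 0.83 and 0.54 TPM with rMSA (-5.12), and Gm42078 (-4.04).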

How the data were processed

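RNA of 3 saline and 3 rMSA livers was sequenced by the study. The authors deposited a table of TPM values per gene, keyed by gene ID and symbol, whose columns all have nearly the same total. In the submitters' processing notes are the aligner STAR 2.5.2b, the trimmer Trimmomatic 0.33, the counter featureCounts, Subread 1.6.0 and the mouse build GRCm38. Gene annotation, strandedness and how TPM was computed: not given in the sources used here. The labels give an RNA integrity number over 8.5 and name both depletion of ribosomal RNA and purification on oligo(dT) beads, of which the study's methods name the depletion. The study's own test used read counts. Counts were not analysed here, so the depth of the libraries is unknown.

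Genes averaging 1 TPM or more were compared on log2(TPM + 1) by limma 3.58.1 under R 4.3.3, with 1 mean per group, a trend of the variance with level and Benjamini-Hochberg adjustment over all tested genes. The code was tested on simulated data. A total of 23 symbols altered by spreadsheet software were repaired by gene ID, and 16433 of 16533 genes matched RefSeq. Promoter windows are RefSeq's on GRCm38.p6, and GC content, length and reading frames come from GENCODE vM21 transcripts. The 53 gene lists were written from textbook knowledge and, with the choice of genes, were chosen with earlier results of these data known. The genes named by rule are the 25 largest falls among non-overlapping genes that passed, the 10 largest rises outside glycolysis and lipid synthesis, up to 4 genes of each list with the smallest p, or its 2 most abundant where none passed, and any tested member of 10 lists. Those lists are the sulfotransferases, Cyp2, Cyp3a, female-biased, male-biased, amino acid breakdown, urea cycle, clock, growth hormone and bile acid lists. Alb, Ghr, Igf1, Nr1i2, Nr1i3, Hnf4a and Lepr are always named. Results for some genes are not reported here. A further 66 genes in the text were chosen after their values were seen. Alternatives were other pseudocounts, filters, scalings and variance estimates, a replicate block and leaving out each liver. The AML12 cells were not used here.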

Additional observations from a re-analysis of the deposited data

How the results depend on the processing

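Counts of calls moved with the pseudocount, the scaling and the fold threshold. With 5 TPM added in place of 1 there were 208 lower and 354 higher calls, with 0.1 TPM 379 and 922, with median centring 414 and 517, and with no fold threshold 955 lower and 2487 higher. Leaving out 1 liver at a time gave 282 to 357 lower and 624 to 770 higher calls, and 273 to 292 of the 304 genes were called lower again. Without a fold threshold the count that fell was 633 to 1052, the lowest without rMSA liver 2, and the count that rose 1699 to 2231. Leaving out saline liver 3 and rMSA liver 2 together, an alternative chosen after seeing the data, gave 800 falls and 1816 rises, and left 15 ribosomal protein rises, 7 interferon rises, 3 acute phase rises and 4 falls of Kupffer cell and macrophage markers. For single named genes, 7346 values under alternatives stayed on the same side of the adjusted p threshold, taken without the fold threshold. Direction was not compared where a gene passed in neither fit, so these values may include changes of sign. A further 264 values no longer passed and 100 newly passed, and none passed in the opposite direction. The cause of these changes was not tested.

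The groups share replicate numbers, and the deviations of same-numbered livers from their group means correlated at 0.05, -0.41 and -0.39. Because each group was centred on its own mean, these values depend on each other. They cannot show whether same-numbered livers share more than a number. With the replicate block, 305 genes were called lower and 664 higher, and 652 fell and 1519 rose without a fold threshold.

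Limits are that each group has 3 mice, that TPM keeps no depth, and that TPM are shares of a fixed total. Fold changes of genes near 1 TPM are understated. How reads of near-identical genes were split is not known. The hour of collection and the makeup of the livers by cell type were not measured in these data.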
